A study of Oryza sativa with 6 samples.

Results

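Cytokinin oxidases (CKX) are the flavoenzymes that remove cytokinins, the adenine-derived plant hormones that promote cell division. They cleave the side chain from the adenine ring, which ends the hormone's activity and cannot be undone. Rice carries a small CKX family, and many of its members respond to cytokinin itself, so the enzymes limit the signal that induces them. In the young grain cytokinin is known to be high while endosperm nuclei and cells divide. CKX2, also called Gn1a, underlies a known quantitative trait locus for grain number per panicle.

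The family was described here through 10 loci of 39217 gene models in the count table. The loci were listed by family membership and not by a measured value, but with earlier results of these data known. These are CKX1 to CKX9 and CKX11. Counts were present in the table for 9 loci. The locus assigned to CKX6 (LOC_Os02g12770) was not analysed here. The table gives no gene names, so the symbols are assignments. The symbol was listed in the rice RefSeq gene table (assembly ASM3414082v1) for 7 of the 10, in each case on the chromosome that the locus identifier names. Chromosome 1 holds 4 of the loci, CKX1 (LOC_Os01g09260), CKX2 (LOC_Os01g10110), CKX5 (LOC_Os01g56810) and CKX4 (LOC_Os01g71310), and RefSeq lists these 4 symbols in the same order. The others are CKX7 (LOC_Os02g12780) on chromosome 2, CKX8 (LOC_Os04g44230) on chromosome 4, CKX9 (LOC_Os05g31040) on chromosome 5, CKX11 (LOC_Os08g35860) on chromosome 8 and CKX3 (LOC_Os10g34230) on chromosome 10.

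RNA was measured in grains of the drw1 mutant and of its wild type ZH11, a japonica rice, both collected 3 days after pollination from paddy-grown plants, with 3 libraries of each genotype. The series asks how the mutation changes expression in the grain. The labels do not give the allele, the mutated locus or the number of plants behind a library, so the spread behind each p-value is that of these libraries and may be technical. The mutant's columns carry another prefix than its label and were assigned to drw1 as the only other genotype, and every direction below rests on that assignment.

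Library totals ran from 16440923 to 17270099 counts in drw1 and from 15582373 to 24147797 in ZH11. The family took 6459 to 6925 counts in a drw1 library and 2481 to 3996 in a ZH11 library. Expression differed widely between the genotypes. An adjusted p under 0.05 by the edgeR quasi-likelihood test was reached by 70.1% of the 23395 genes tested, with 35.7% higher and 34.4% lower in drw1. Of the calls, 51.0% were higher with TMM scaling and 61.3% with library totals alone. A called change was thus common for any gene.

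The CKX family split by direction in drw1 grains. CKX11, CKX5, CKX2 and CKX3 rose, and CKX1, CKX4 and CKX9 fell. Thus 7 of the 7 members with enough counts for a test passed, against 70.1% of all genes tested, 4 higher against 35.7% and 3 lower against 34.4%. At 2-fold or more there were 6 of the 7, against 27.3% of all genes tested, with 3 higher against 12.7% and 3 lower against 14.6%. In CPM, the counts relative to TMM-adjusted library totals, drw1 and ZH11 libraries were free of overlap for these 7 members, against 72.6% of all genes. CKX4 passed the filter on low counts through its ZH11 libraries, since only 1 drw1 library reached the filter's level, so its presence among the tested members already implies a difference. The other 6 reached that level in the 3 libraries of both genotypes. The median log2 fold change (drw1 over ZH11) of the 7 was 0.43, beside 0.03 for all genes tested. With 4 members higher and 3 lower, this median is the value of CKX3, the smallest change of the 7. It does not describe a shift shared by the family.

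**Figure D1:**
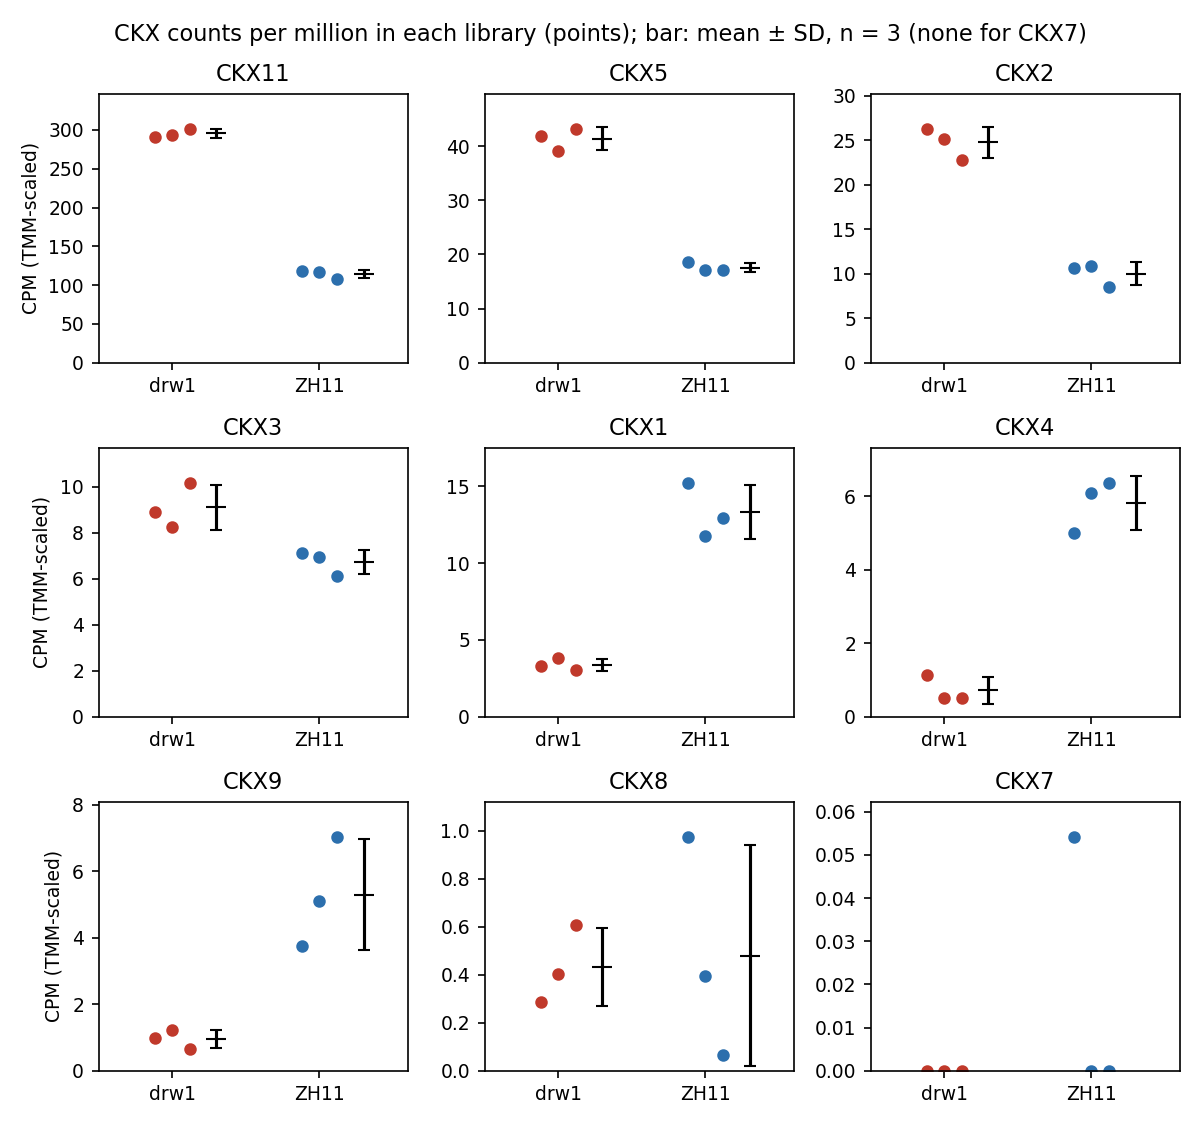
CPM (TMM-scaled counts, linear axes from 0) of the 9 CKX members in each library, drw1 in red and ZH11 in blue, with the mean ± SD of 3 libraries (not drawn for CKX7, which had 1 count in all). The drw1 points lie above the ZH11 points for CKX11, CKX5, CKX2 and CKX3, below them for CKX1, CKX4 and CKX9, and among them for CKX8.

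CKX11, whose loss is known in rice to delay leaf senescence, was the most abundant member. It had 291, 294 and 302 CPM in the drw1 libraries, against 118, 117 and 108 CPM in the ZH11 libraries. The groups lay far apart, with little spread within either. Its means were 295.6 ± 5.45 CPM in drw1 and 114 ± 5.35 CPM in ZH11 (SD, n = 3). The log2 fold change was 1.37 (SE 0.06, 95% interval 1.24 to 1.50; adjusted p = 2.0e-12 by the edgeR quasi-likelihood test), a 2.58-fold rise.

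CKX5 had 41.8, 39.2 and 43.2 CPM in drw1 libraries, against 18.5, 17.1 and 17.0 CPM in ZH11 libraries. The lowest drw1 library was thus above the highest ZH11 library. On the log2 scale CKX5 rose by 1.24 (SE 0.09, 95% interval 1.06 to 1.42; adjusted p = 8.3e-10 by the edgeR quasi-likelihood test), a 2.36-fold rise.

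CKX2, the grain number gene, had 26.3, 25.1 and 22.8 CPM in drw1 libraries, against 10.7, 10.8 and 8.52 CPM in ZH11 libraries. The groups did not overlap. CKX2 rose by 1.29 on the log2 scale (SE 0.11, 95% interval 1.06 to 1.53; adjusted p = 1.5e-08 by the edgeR quasi-likelihood test), a 2.45-fold rise. The intervals of CKX11, CKX5 and CKX2 overlap one another.

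CKX3 rose least. It had 8.88, 8.24 and 10.2 CPM in drw1 libraries, against 7.10, 6.96 and 6.11 CPM in ZH11 libraries. The groups lay close together, and the highest drw1 library stood somewhat apart from the other drw1 libraries. The log2 fold change was 0.43 (SE 0.14, 95% interval 0.14 to 0.72; adjusted p = 0.010 by the edgeR quasi-likelihood test), a 1.35-fold rise. Without that library, drw1 replicate 3, the change was 0.34 and no longer passed (adjusted p = 0.057 by the edgeR quasi-likelihood test, over alternatives 0.00090 to 0.057).

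CKX4, known in rice to promote crown root formation when overexpressed, fell most. It had 1.15, 0.519 and 0.498 CPM in drw1 libraries, against 4.99, 6.08 and 6.37 CPM in ZH11 libraries. These drw1 values rest on 20, 9 and 9 counts, against 92, 139 and 95 counts in ZH11. The first drw1 library was the highest of its group and still below the lowest ZH11 library. The log2 fold change was -3.0 (SE 0.28, 95% interval -3.58 to -2.42), 8.01-fold lower in drw1. CKX4 met the low-count filter through ZH11 alone, so its call supports nothing by itself and its size is given as a description.

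CKX9, known in rice as a strigolactone-responsive member, had 0.974, 1.21 and 0.663 CPM in drw1 libraries, against 3.74, 5.12 and 7.04 CPM in ZH11 libraries. The ZH11 libraries were widely spread, and the lowest of them was above the highest drw1 library. For CKX9 the log2 fold change was -2.46 (SE 0.29, 95% interval -3.07 to -1.86; adjusted p = 7.4e-07 by the edgeR quasi-likelihood test), 5.52-fold lower in drw1. The interval of CKX9 overlaps those of CKX4 and CKX1.

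CKX1 had 3.32, 3.80 and 3.04 CPM in drw1 libraries, against 15.2, 11.8 and 12.9 CPM in ZH11 libraries. Its means were 3.39 ± 0.385 CPM in drw1 and 13.3 ± 1.77 CPM in ZH11 (SD, n = 3). For CKX1 the log2 fold change was -1.97 (SE 0.15, 95% interval -2.29 to -1.65; adjusted p = 3.7e-09 by the edgeR quasi-likelihood test), 3.92-fold lower in drw1. The intervals of CKX1 and CKX4 do not overlap.

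**Figure D2:**
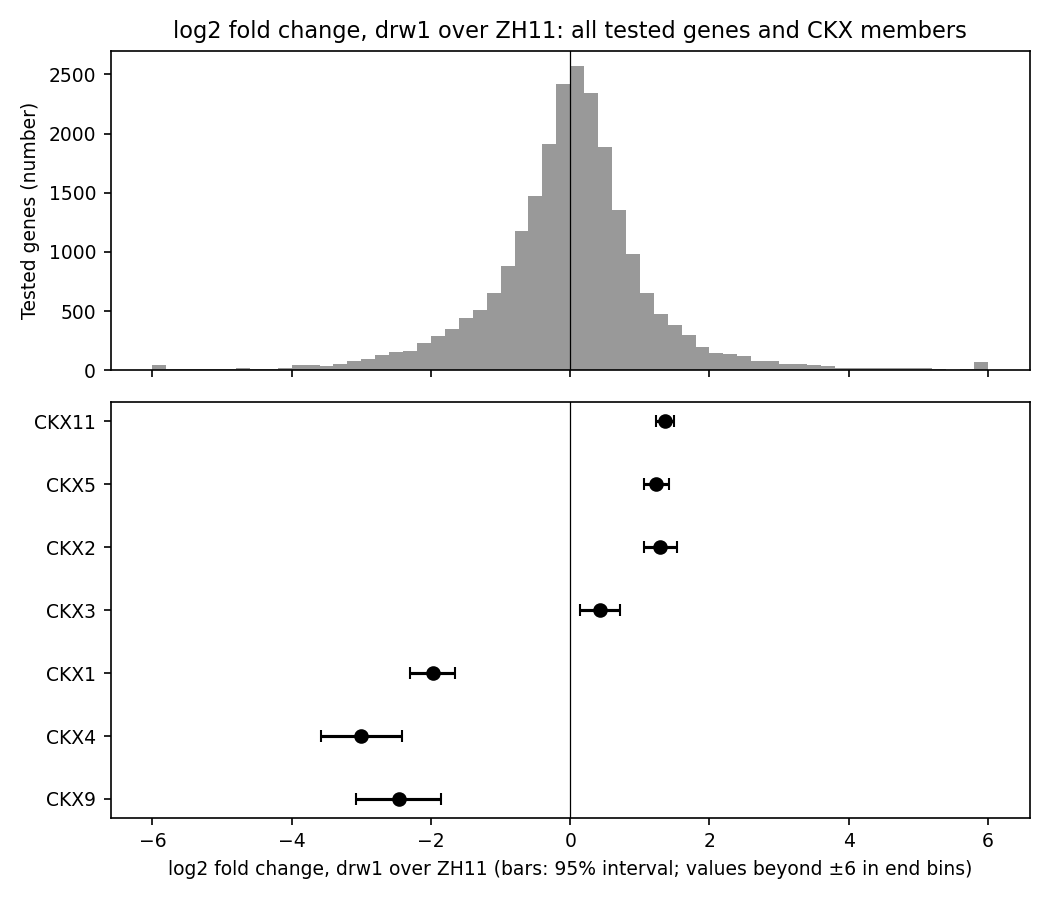
Upper panel, number of tested genes by log2 fold change (drw1 over ZH11), with values beyond the axis ends put in the end bins. Lower panel, the log2 fold change of the 7 tested CKX members with 95% intervals, 4 of them above 0 and 3 below, from 1.37 for CKX11 to -3.0 for CKX4.

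CKX8 and CKX7 were near or below the limit of detection and did not pass the filter. CKX8 had 5, 7 and 11 counts in drw1 libraries, against 18, 9 and 1 counts in ZH11 libraries, so the groups overlapped and the ZH11 libraries spanned the wider range. Without the filter its log2 fold change was -0.18 (95% interval -1.39 to 1.03; adjusted p = 0.82 by the edgeR quasi-likelihood test), an interval that admits a change of 2-fold in either direction. CKX7, the chromosome 2 member next to the locus assigned to CKX6, had 0 counts over drw1 and 1 count over ZH11. A count of 0 over the drw1 libraries allows up to 3 counts, or 0.0567 CPM, so a difference was not detectable at this depth. The locus assigned to CKX10 lies outside the 10 loci and was likewise scarce, with 7 counts over drw1 and 11 over ZH11.

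Chromosome 1 held members of both directions. Of its 4 members, CKX2 and CKX5 rose, and CKX1 and CKX4 fell. CKX1 and CKX2, which are neighbours in the order of these 4, moved in opposite directions. Within a library their levels per length, as TPM (length-scaled counts, from the counts and the deposited gene lengths), do not depend on scaling when taken as a ratio. The TPM ratio of CKX2 to CKX1 was 7.82, 6.52 and 7.42 in drw1 libraries, against 0.692, 0.911 and 0.650 in ZH11 libraries. CKX2 was thus the higher of the pair in the 3 drw1 libraries and CKX1 in the 3 ZH11 libraries.

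The balance between members was described by ratios of TPM within a library. The ratio of CKX5 to CKX11 was 0.139 ± 0.00565 in drw1 and 0.152 ± 0.00608 in ZH11 (SD, n = 3). Its drw1 libraries lay below its ZH11 libraries without overlap. The ratio of CKX3 to CKX11 was 0.0258 ± 0.00238 in drw1 and 0.0492 ± 0.00170 in ZH11, also without overlap. The ratio of CKX2 to CKX11 was 0.104 ± 0.00925 in drw1 and 0.108 ± 0.00948 in ZH11 (SD, n = 3), and here the genotypes overlapped. The ratio of CKX1 to CKX4 was 7.50 ± 3.15 in drw1 and 3.22 ± 0.854 in ZH11 (SD, n = 3), where CKX4 had 9 to 20 counts in a drw1 library. The smallest two-sided p that an exact permutation test over 3 against 3 libraries can give is 0.10, so these ratios are given without a test.

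In drw1 grains the order of levels per length was CKX11, CKX5, CKX2, CKX3, CKX1, CKX4, CKX8, CKX9 and CKX7. In ZH11 grains it was CKX11, CKX5, CKX1, CKX2, CKX3, CKX4, CKX9, CKX8 and CKX7. CKX11 averaged 219 ± 0.621 TPM in drw1 and 80.2 ± 1.81 TPM in ZH11 (SD, n = 3), far above the next member in both. CKX5 averaged 30.4 ± 1.27 TPM in drw1 and 12.2 ± 0.251 TPM in ZH11. CKX1 averaged 3.16 ± 0.397 TPM in drw1 and 11.7 ± 1.25 TPM in ZH11, where its libraries overlapped those of CKX5. CKX1 thus lay below CKX2 and CKX3 in drw1 and above both in ZH11. CKX2 averaged 22.8 ± 2.08 TPM in drw1 and 8.70 ± 0.935 TPM in ZH11.

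The lower ranks were less distinct. CKX3 averaged 5.65 ± 0.516 TPM in drw1 and 3.95 ± 0.209 TPM in ZH11, and in ZH11 it overlapped CKX4. CKX4 averaged 0.490 ± 0.259 TPM in drw1 and 3.73 ± 0.591 TPM in ZH11 (SD, n = 3). In drw1 the libraries of CKX4 and CKX8 overlapped, as did those of CKX8 and CKX9, and in ZH11 those of CKX8 and CKX7. CKX9 averaged 0.239 ± 0.0718 TPM in drw1 and 1.27 ± 0.439 TPM in ZH11. Its deposited model is 6223 bases long, against 1521 to 2509 bases for the other members. Division by this length lowers its TPM and leaves its fold change as it is. Whether reads of other transcripts were counted in this model was not tested.

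**Figure D3:**
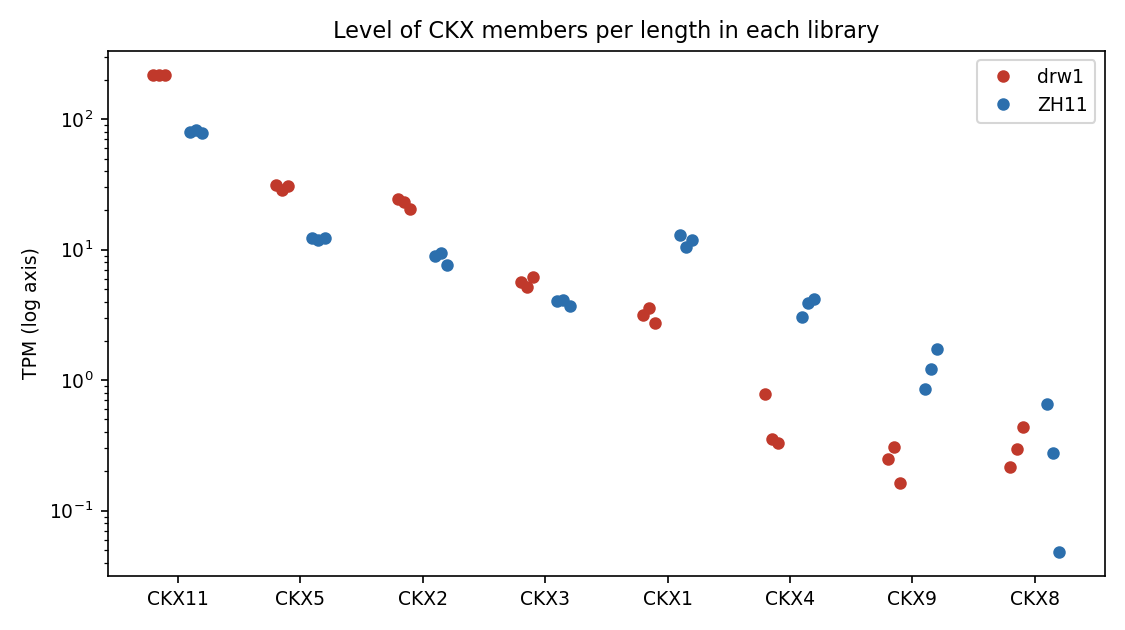
TPM of 8 CKX members in each library on a log axis, drw1 in red and ZH11 in blue; CKX7 is not drawn because its value is 0 in 5 libraries. CKX11 is the highest member in the 6 libraries, and CKX1 lies level with CKX5 in ZH11 and below CKX3 in drw1.

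Summed over the 9 loci, CKX transcripts were more abundant in drw1, and CKX11 made up most of the sum. The sum was 286, 281 and 280 TPM in drw1 libraries, against 123, 123 and 120 TPM in ZH11 libraries, a ratio of means of 2.31. The 4 risen members together came to 278 ± 2.88 TPM in drw1 and 105 ± 2.75 TPM in ZH11 (SD, n = 3). The 3 fallen members came to 3.89 ± 0.545 TPM in drw1 and 16.7 ± 1.10 TPM in ZH11. Both groups were formed from the calls in these same libraries, so the direction of each difference was fixed beforehand. The fallen members include CKX4, which met the low-count filter through ZH11 alone. These sums only describe how much each group adds to the total. Without CKX11 the sum was 63.0 ± 2.45 TPM in drw1 and 41.9 ± 0.903 TPM in ZH11, a ratio of 1.50. The sum was not tested.

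The composition of the family also differed. CKX11 made up 77.7 ± 0.622% of the summed TPM in drw1 and 65.7 ± 0.759% in ZH11 (SD, n = 3). CKX1 made up 1.12 ± 0.141% in drw1 and 9.59 ± 1.06% in ZH11, and CKX4 made up 0.173 ± 0.0893% in drw1 and 3.06 ± 0.514% in ZH11. The shares of CKX5 and CKX2 lay closer together. CKX5 held 10.8 ± 0.409% in drw1 and 9.97 ± 0.296% in ZH11, and CKX2 held 8.07 ± 0.668% in drw1 and 7.12 ± 0.662% in ZH11. Shares of one sum are bound to each other, so they describe the mixture and are not separate changes.

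**Figure D4:**
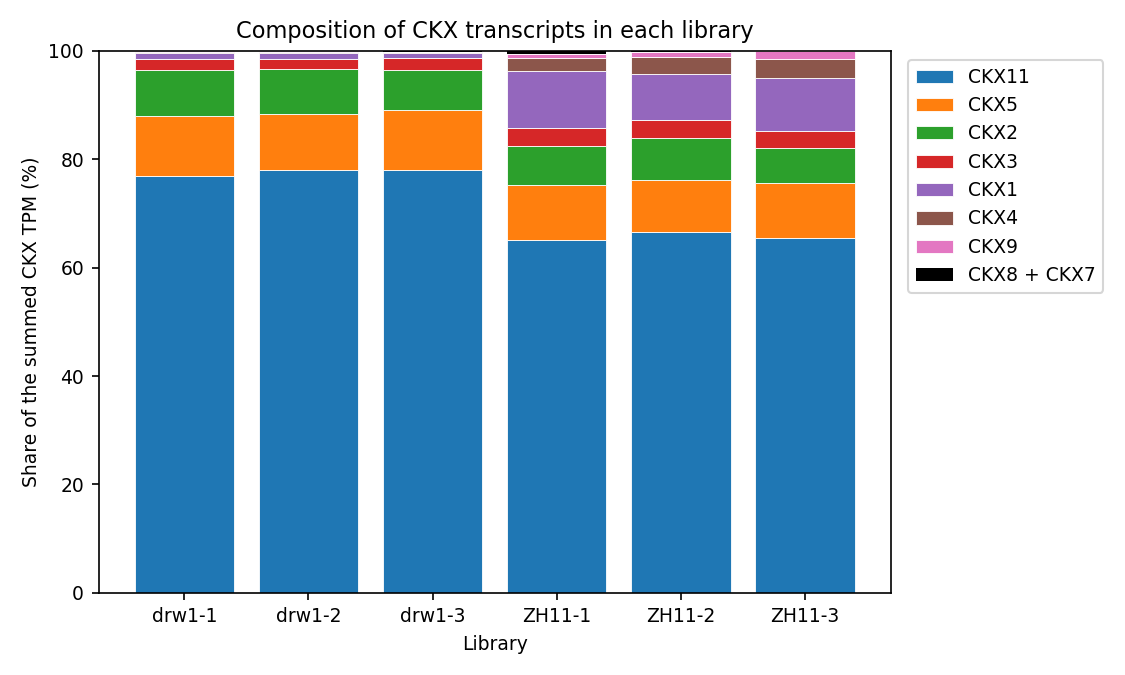
Share of the summed CKX TPM (percent, 0 to 100) taken by each member in each of the 6 libraries, drw1 on the left and ZH11 on the right. CKX11 takes 77.7% on average in drw1 and 65.7% in ZH11, and the CKX1 band is 1.12% in drw1 and 9.59% in ZH11.

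The grain is a mixture of filial endosperm and embryo with maternal tissue, and in such bulk RNA fewer cells of a type and less RNA per cell cannot be told apart. Loci were assigned to tissues from memory, and RefSeq lists 6 of the 12 symbols, each on the chromosome of its locus. Of 8 loci assigned to endosperm, 7 were in the table, 7 fell at least 2-fold, against 14.6% of all genes tested, and 0 were without counts in either genotype. Of these 7, 2 met the low-count filter through ZH11 alone, with 0 drw1 libraries at its level, and so had to differ to be tested. The summed level of the 7 was 23.1 to 24.4 CPM in drw1 libraries and 669 to 721 CPM in ZH11 libraries. In ZH11 most of this sum came from 2 loci, which averaged 265 and 292 CPM. Of 4 loci assigned to the maternal and green tissue, 4 fell, against 34.4% of all genes tested, and 1 of them fell at least 2-fold, with a summed level of 376 to 396 CPM in drw1 and 521 to 579 CPM in ZH11. The part of tissue composition in the CKX differences was not tested.

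The remaining cytokinin pathway was described through 48 loci in 6 lists, written as pairs of symbol and locus from memory. RefSeq lists 31 of the 49 symbols, CKX10 included, and 31 lie on the chromosome of their locus, so membership is an assignment and single loci are not named. Of 43 loci tested, 15 rose and 19 fell, so 79.1% were called, near the 70.1% of all genes. By direction, 35.7% of all genes tested rose and 34.4% fell. The counts of calls in each list include loci for which all 3 libraries of 1 genotype alone reached the level of the low-count filter, so their being tested already leaned on a difference. These were 1 synthesis locus through drw1 and 1 through ZH11, 3 activation loci through drw1 and 2 type-A loci through ZH11.

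Among synthesis loci, for isopentenyltransferases and the cytochromes that hydroxylate their products, 1 rose, 5 fell and 3 did not pass of 9 tested. Of all genes tested, 35.7% rose and 34.4% fell. The median of the synthesis loci on the log2 scale was -0.58. The synthesis locus with the largest fall had 3.15, 3.98 and 4.42 CPM in drw1, against 14.8, 15.4 and 16.2 CPM in ZH11. It was about as far below ZH11 as CKX1, the log2 fold change being -2.0 (SE 0.14; adjusted p = 9.0e-10 by the edgeR quasi-likelihood test). A single locus rose, by 1.42 on the log2 scale (SE 0.45; adjusted p = 0.010 by the edgeR quasi-likelihood test), on 49 counts over drw1 and 19 over ZH11. It met the filter through drw1 alone, so its call supports nothing by itself, and with at least 1 CPM required in 3 libraries 0 synthesis loci rose. Under library totals alone or upper-quartile factors 2 rose and 3 fell, without drw1 replicate 2 also 2 and 3, and without ZH11 replicate 1 or 3, 2 rose.

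Activation loci, for the LOG-type enzymes that release the active bases, also moved in both directions. Of 11 tested, 6 rose, against 35.7% of all genes tested, 4 fell, against 34.4%, and 1 did not pass. The median of the 11 was 0.56. The activation locus with the largest fall had 4.76, 3.63 and 4.86 CPM in drw1, against 17.1, 18.7 and 19.3 CPM in ZH11, the log2 fold change being -2.05 (SE 0.13; adjusted p = 3.0e-10 by the edgeR quasi-likelihood test). The activation locus with the largest rise had 60 counts over drw1 and 2 over ZH11, so drw1 had 31.9 times the level of ZH11 (95% interval from counting error 8.45 to 269). It met the filter through drw1 alone, and its size is given as a description.

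Of the signalling lists, the phosphotransfer list moved in 1 direction among its tested loci. Phosphotransfer proteins carry the signal from receptor to regulator. Of the 5 loci, 3 were assigned to pseudo-phosphotransfer proteins, for which that role is not implied. All 5 rose, by 0.22 to 1.81 on the log2 scale, against 35.7% of all genes tested. Fewer passed under other settings, 4 with DESeq2 size factors, with DESeq2, without a low-count filter or with the replicate block. Leaving out drw1 replicate 1 or ZH11 replicate 1 also gave 4. Leaving out drw1 replicate 3 or ZH11 replicate 2 gave 3. The locus with the largest rise, assigned to a pseudo-phosphotransfer protein, had 8.88, 7.09 and 7.68 CPM in drw1, against 2.06, 1.88 and 2.95 CPM in ZH11. Among 4 receptor kinase loci 3 fell, against 34.4% of all genes tested, and 1 did not pass. The falls were by at most 0.75 on the log2 scale. The locus that did not pass rose under library totals alone or upper-quartile factors.

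Among 8 tested loci of type-A response regulators, which cytokinin induces and which dampen its signal, 2 rose, 4 fell and 2 did not pass. Of all genes tested, 35.7% rose and 34.4% fell. The type-A locus that rose most did so by 1.38 on the log2 scale (SE 0.10; adjusted p = 1.3e-09 by the edgeR quasi-likelihood test), with 28.0, 26.2 and 30.5 CPM in drw1, against 11.3, 10.4 and 10.8 CPM in ZH11. That rise was close in size to that of CKX11. The one that fell most had a log2 fold change of -3.23 (SE 0.36), on 17 counts over drw1 and 173 over ZH11. That locus met the filter through ZH11 alone, and its size is given as a description. Among 6 loci of type-B response regulators, the transcription factors of the pathway, 1 rose, 3 fell and 2 did not pass, within -0.89 and 0.76 on the log2 scale.

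**Figure D5:**
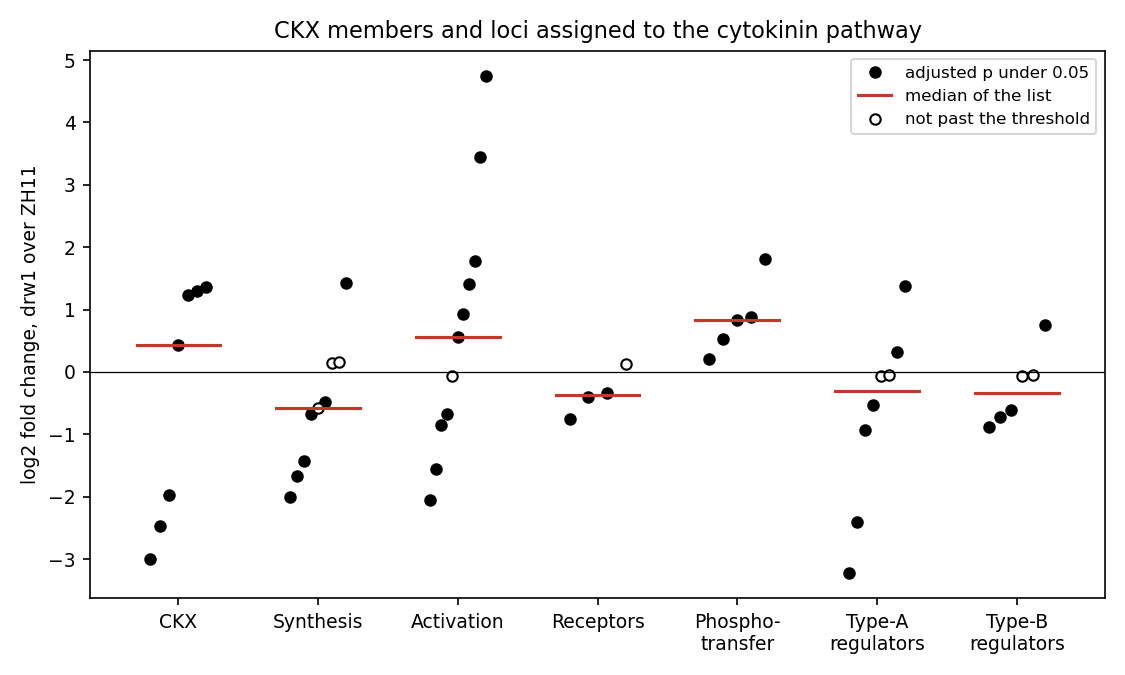
Log2 fold change (drw1 over ZH11) of the 7 tested CKX members and of the tested loci in 6 lists of the cytokinin pathway, 1 point per locus, filled where the adjusted p was under 0.05, with the list's median as a line. CKX loci and those of each other list lie on both sides of 0, while the 5 phosphotransfer loci lie above it.

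The 2 tested loci whose profiles over the 6 libraries were closest to that of CKX11 were LOC_Os01g04950 and LOC_Os06g51060. Likeness was the Euclidean distance between log2 CPM values centred on each gene's own mean, and the distances were 0.0748 and 0.0835. Their log2 fold changes (drw1 over ZH11) were 1.41 and 1.38, beside 1.37 for CKX11. With 2 genotypes and 3 libraries each, this likeness mainly ranks genes by a similar fold change.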

How the data were processed

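Read counts per gene model were deposited by the authors as whole numbers, not normalized, with gene lengths in bases, per the file headers. The tools named, per the submitters' processing notes, were fastp, HISAT2, featureCounts and DESeq. Versions, the build and annotation, and how strand was set and multiply matching reads handled are not given in the sources here, so reads shared by similar CKX copies or overlapping genes could be divided or lost. The mutated gene was not analysed here, so the genotype labels were not checked against it.

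Genotypes were compared with edgeR 4.0.16 (R 4.3.3) in the quasi-likelihood test, two-sided, genotype as the only factor, with TMM scaling and edgeR's default filter (about 10 counts at the median library total, 0.593 CPM, in at least 3 libraries). Benjamini-Hochberg adjustment ran over all 23395 tested genes, and calls were made at 0.05. Standard errors are approximate, taken from the F statistic. CPM used the TMM-scaled totals, and TPM the counts and deposited lengths. The test was first checked on simulated counts in which only a small share of genes changed, with rises and falls balanced. Here 70.1% of genes were called, and that check does not cover so wide a change. Floors are 3 counts, and floors and counting intervals cover counting error only. Same-genotype libraries differed by more than sampling noise (chi-square per degree of freedom 2.72 to 9.34). Alternatives used DESeq2 1.42.0, limma 3.58.1, other scalings and filters, thinning, a replicate block and each library left out.

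The CKX members, the lists and the tests were chosen with earlier results of these data known. All 10 CKX loci were named. Of each pathway list, the largest called rise and fall were to be described. For the receptor and type-B lists only the range is given.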

Additional observations from a re-analysis of the deposited data

How the results depend on the processing

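Across 15 alternatives, 104 of 105 log2 fold changes of the 7 tested CKX members kept their direction and their side of the threshold, and 0 reversed. The exception was CKX3 without drw1 replicate 3 (0.34). These values include those of CKX4, which met the low-count filter through ZH11 alone. The alternatives reuse the same libraries, so they show dependence on the processing and are not independent checks. Leaving out 1 library gave 0.34 to 0.50 for CKX3, -2.06 to -1.87 for CKX1, 1.20 to 1.35 for CKX2, -3.49 to -2.79 for CKX4, 1.21 to 1.28 for CKX5, -2.67 to -2.23 for CKX9 and 1.33 to 1.39 for CKX11, with 3 to 4 members higher and 3 lower, and 15243 to 16522 genes called. Library totals alone moved the median of all genes to 0.19 and upper-quartile factors to 0.14, beside 0.03 with TMM, and CKX3 was 0.59 and 0.54 under these scalings. The log2 ratio of the family sum was 1.21 in TPM and 1.13 as CPM per kilobase with TMM scaling, whose totals differ.

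Called synthesis loci numbered 2 higher and 3 lower with library totals alone and with upper-quartile factors, 3 higher without a low-count filter (more loci tested) and 0 higher with at least 1 CPM in 3 libraries (fewer tested). Leaving out 1 library gave 1 to 2 higher and 3 to 5 lower. Receptor loci higher numbered 1 with library totals alone and with upper-quartile factors, and phosphotransfer loci higher 3 to 5 without 1 library and 4 with DESeq2 size factors, DESeq2, no low-count filter or the replicate block. The cause of the shifts with scaling and with single libraries was not tested.

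With the replicate block, 15505 genes were called, and the fit left the calls of the 7 CKX members as they were. Nothing in the labels links equal numbers across genotypes. Deviations of libraries with equal numbers correlated at -0.20, 0.04 and -0.16, and the best partner had the same number for 1 of 6 libraries. Depth limits what can be said of CKX7 and CKX8, and the precision of CKX4 and CKX9 in drw1.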
